A study of Mus musculus with 28 samples.

Results

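Nodal and 3 of its secreted antagonists, Lefty1, Lefty2 and Cer1, were followed across mouse germ cells and the cell lines derived from germ cells or embryos. Their probes were found through the RefSeq accession that each array file gives for a probe. Nodal had 3 probes, Lefty1 had 3, Lefty2 had 4 and Cer1 had 1, which makes 11 of the 43803 non-control probes on the array. The set was defined by gene name and not by a measured value, though with earlier results of these data known.

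The series holds 28 single-colour Agilent arrays in 14 groups of 2. Primordial germ cells (PGC), which give rise to oocytes and sperm, of the strain BDF1 x TgN(deGFP)18Imeg were collected from female and male embryos at embryonic days 10.5, 13.5 and 17.5 (E10.5, E13.5 and E17.5). Oogonia and spermatogonia came from BDF1 x Tg(Mvh-Venus)1Rbrc mice, whose age the labels do not give. Embryonic germ (EG) lines, which are pluripotent lines grown from PGC, were female and male lines of Rb(X.2)2Ad X 129/Sv origin, and their source field names PGC of day 12.5. Embryonic stem (ES) cells were the female line no5 (129/Sv) and the male line TMA5, from a cross of TgN (deGFP)20Imeg with MSM/Ms. Germline stem (GS) cells, a cultured spermatogonial line, were of the DBA/2 strain, and whole adult testis was from C57BL/6J. Each ES group is therefore 1 named line, and the strains differ between the cell types. The labels name no treatment. The labels do not say how cells were sorted, whether cultures had feeder cells, or whether both arrays of a group stand for different animals or cultures, so every p-value rests on a spread between samples that may be technical.

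Nodal is a secreted ligand of the TGF-beta superfamily. It binds activin receptors together with a co-receptor of the Cripto family, and the receptors activate Smad2 and Smad3, which enter the nucleus with Smad4 and act with factors such as Foxh1. Lefty1 and Lefty2 are diverged members of the same superfamily that block Nodal and its co-receptor, and their genes are themselves induced by Nodal signalling, as is Nodal. Cer1 (Cerberus-like) is a secreted cysteine-knot protein that binds Nodal directly. The pathway patterns mesoderm, endoderm and the left-right axis in the early embryo, is active in pluripotent cells, and is known for a transient activity in fetal male germ cells.

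All levels below are log2 of the processed signal minus the array's 75th percentile, taken over 7227 probes detected well above background on every array, so that 0 is that percentile and -1 a signal lower by a factor of 2. Levels are comparable between arrays for 1 probe, not between genes. The share of probes well above background ran from 17.8% to 76.7% over the 28 arrays and was lowest in the 2 E10.5 arrays of replicate 1, and the dimmest signal still counted as above background ran from -10.72 to -3.58, so a low level has a different meaning on different arrays. In PGC all arrays of replicate 1 were scanned on 1 day and all arrays of replicate 2 on another, and each other group lay on 1 slide and 1 scan day. Germ cell markers (Ddx4, Dazl, Dppa3, Mael and Kit) were above background on both arrays of every PGC, oogonia, spermatogonia and GS group. The same held for every EG and ES group, and in testis for all but Dppa3, so their detection does not tell these cell types apart. The GS arrays differed from each other: Sox2, for example, stood at -6.63 and -0.94.

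Lefty1 is described first, as its signal was above background on both arrays of all groups but E17.5 female PGC and oogonia. In male PGC it stood at -0.90 and -0.60 at E10.5, at 2.06 and 2.59 at E13.5, and at -4.30 and -4.33 at E17.5. In female PGC it stood at -1.71 and -0.90 at E10.5, at -5.43 and -4.76 at E13.5, and at -7.95 and -8.95 at E17.5, where neither array was above background. The sexes were thus close at E10.5, moved in opposite directions by E13.5, and by E17.5 the males were far lower and the females not above background. Outside PGC, Lefty1 was high in all pluripotent lines, with 2.60 and 2.76 in female EG, 1.95 and 2.12 in male EG, 2.09 and 1.88 in female ES, and 2.41 and 2.20 in male ES. It was low but above background in spermatogonia (-4.66 and -4.85), GS cells (-2.39 and -4.73) and testis (-5.29 and -5.21), and not above background in oogonia (-9.01 and -10.24). The E13.5 male arrays lay among the pluripotent lines: in the order of group means, E13.5 male PGC (2.33) came between female EG cells (2.68) and male ES cells (2.31), and the ranges of the E13.5 male and male ES groups overlapped. These 5 groups (1.99 to 2.68) were followed after a gap of 2.74 by the E10.5 groups.

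**Figure D1:**
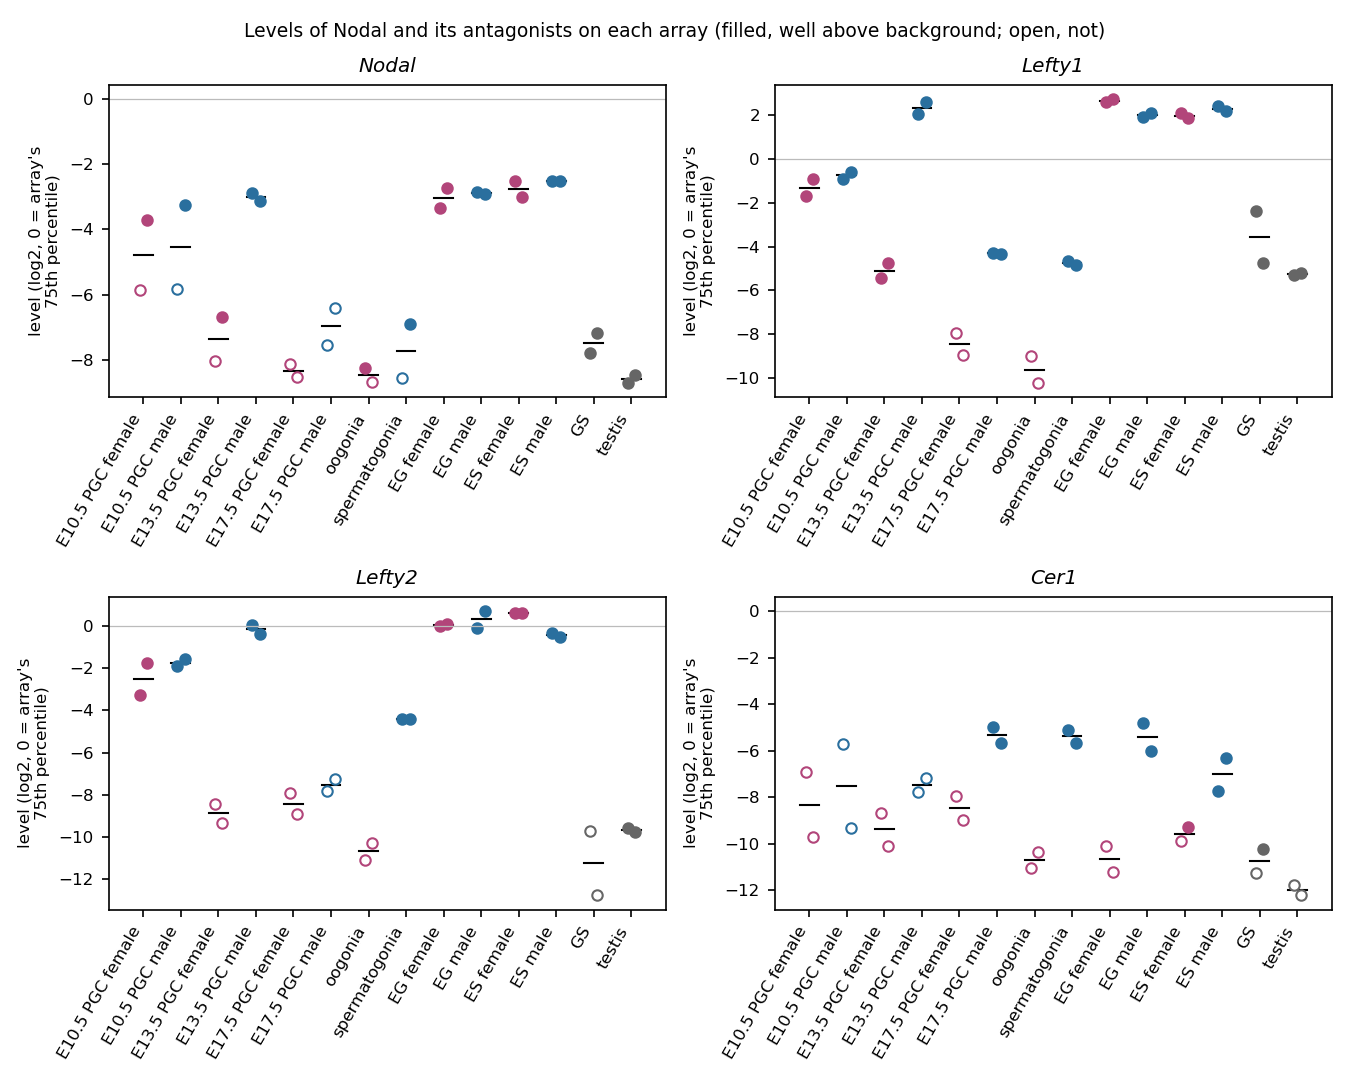
Level of each gene on each of the 28 arrays (vertical axis, log2 relative to the array's 75th percentile; horizontal axis, 14 groups of 2 arrays), with the group mean as a bar, females and oogonia in pink, males and spermatogonia in blue, GS cells and testis in grey. Filled points were well above background and open points were not; Nodal, Lefty1 and Lefty2 are high in E13.5 male PGC, EG and ES cells, while Cer1 is above background on both arrays in E17.5 male PGC, spermatogonia, male EG and male ES cells.

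Lefty2 followed a like course with a sharper edge. In male PGC it stood at -1.88 and -1.58 at E10.5 and at 0.07 and -0.38 at E13.5, and neither E17.5 array was above background (-7.83 and -7.27). In female PGC it stood at -3.29 and -1.77 at E10.5 and was not above background at E13.5 (-8.42 and -9.33) or E17.5 (-7.93 and -8.90). Female PGC thus had no measurable Lefty2 signal from E13.5 on and male PGC none at E17.5. In EG cells it stood at 0.01 and 0.09 in females and -0.09 and 0.72 in males, and in ES cells at 0.60 and 0.64 in females and -0.34 and -0.53 in males. With the probe used, spermatogonia held an intermediate level (-4.41 and -4.39, both above background). The other Lefty2 probes had means of -7.03, -8 and -6.89 there, above background on 1, 0 and 1 of 2 arrays. The gene was near the detection limit in testis (-9.60 and -9.76, both above background) and not above background in oogonia (-11.08 and -10.29) or GS cells (-9.71 and -12.77). In the order of means the 5 highest groups, from female ES cells (0.62) to male ES cells (-0.43), overlapped each with the next, and gaps of 1.30, 1.87 and 3.15 set off the E10.5 groups, spermatogonia and the groups below.

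Nodal itself, the ligand, was above background on both arrays of 7 groups. In male PGC it stood at -5.83 and -3.24 at E10.5, where 1 of 2 arrays was above background, at -2.89 and -3.12 at E13.5, where both were, and at -7.54 and -6.39 at E17.5, where neither was. In female PGC it stood at -5.86 and -3.72 at E10.5, at -8.02 and -6.69 at E13.5 (1 of 2 above background at each stage), and at -8.13 and -8.52 at E17.5, where neither was. The E10.5 pairs split by replicate and not by sex, with both replicate 1 arrays not above background. Nodal reached similar levels in E13.5 male PGC and in all pluripotent lines: -3.33 and -2.73 in female EG, -2.86 and -2.91 in male EG, -2.53 and -3.01 in female ES, and -2.53 and -2.51 in male ES. The ranges of neighbouring groups overlapped throughout these 5 groups, so their order is not resolved. The E10.5 male range, wide as it is, overlapped that of female EG cells too, and a gap of 2.18 separated E10.5 female PGC from all groups below. In GS cells (-7.80 and -7.18) and testis (-8.70 and -8.45) it was low but above background on both arrays, and in oogonia (-8.26 and -8.69) and spermatogonia (-8.54 and -6.90) on 1 of 2.

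Cer1, the antagonist outside the Lefty family, was distributed differently. It was above background on both arrays in 4 groups, all of them male: E17.5 male PGC (-4.97 and -5.66), spermatogonia (-5.10 and -5.67), male EG cells (-4.83 and -6.01) and male ES cells (-7.71 and -6.33). In female ES cells and in GS cells 1 of 2 arrays was above background, at -9.28 and -10.24 respectively. No array of E10.5 PGC, E13.5 PGC, E17.5 female PGC, oogonia, female EG cells or testis was. The first 3 of the 4 male groups could not be ordered, since their ranges overlapped, and male ES cells followed after a gap of 1.60.

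RefSeq's promoter table (build GRCm38.p6) held entries for Nodal and Cer1, a ligand and an antagonist with unlike group patterns, and their 250 bases before the start are shown, 5′ to 3′ on the gene's strand. Lefty1 and Lefty2 had no entry. The Nodal window is chr10:61417722-61417971 on the plus strand and the Cer1 window chr4:82885152-82885401 on the minus strand. Capitals mark matches to the short Smad motif CAGAC.
Nodal: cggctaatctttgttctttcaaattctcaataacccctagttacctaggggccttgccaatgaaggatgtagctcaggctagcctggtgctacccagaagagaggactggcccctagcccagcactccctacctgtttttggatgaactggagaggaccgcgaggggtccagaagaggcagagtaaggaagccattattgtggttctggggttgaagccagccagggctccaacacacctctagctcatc
Cer1: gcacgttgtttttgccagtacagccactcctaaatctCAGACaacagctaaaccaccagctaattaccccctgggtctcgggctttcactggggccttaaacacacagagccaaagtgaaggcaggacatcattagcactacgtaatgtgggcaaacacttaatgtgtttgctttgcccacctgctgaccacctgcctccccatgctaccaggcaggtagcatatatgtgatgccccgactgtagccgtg

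Both strands were searched for 3 motifs that bear on this pathway. CAGAC occurred once in the Cer1 window, 213 to 209 bases before the start, and not in the Nodal window, against 42.2% of the 32851 promoters in the table. The Foxh1 motif TGTNNATT was in neither window and in 10.9% of all promoters. The Smad palindrome GTCTAGAC was in neither and in 0.167% of all. GC content was 53.2% for Nodal and 51.6% for Cer1. These matches describe the letters of these windows only.

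Different probes of 1 gene gave like patterns. Over the 14 group means the probes of Nodal correlated at 0.981 to 0.995, those of Lefty1 at 0.980 to 1.000 and those of Lefty2 at 0.970 to 0.994, as a description of probes that share their arrays. The male minus female difference at E13.5 was 4.35 to 4.55 for the Nodal probes, 7.37 to 7.81 for the Lefty1 probes and 5.33 to 8.72 for the Lefty2 probes. The probe with the highest mean over all arrays stands for its gene here, and in Lefty2 that probe also gave the largest E13.5 difference. At E17.5 the probes of Lefty1 disagreed, with 4.13, 3.73 and 1.5. Lefty1 and Lefty2 are close paralogs, and how far a probe of 1 binds the other's transcript was not tested. Lefty1 but not Lefty2 was above background on both arrays of E13.5 female PGC, E17.5 male PGC and GS cells. Lefty1 itself was low there (means -5.09, -4.32 and -3.56), and weak binding could stay under the detection limit. These groups therefore do not decide the question.

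The first comparison was between the sexes of PGC at each stage. At E10.5 no member was called by limma (adjusted p 1 for Lefty1 and for Lefty2), where 1 of the 8773 genes tested was called, a share of 0.0114%. The male minus female difference was 0.55 ± 0.58 (SE) for Lefty1 and 0.80 ± 0.72 for Lefty2 on the log2 scale, and the ranges of the sexes met or overlapped. Nodal and Cer1 were not tested at E10.5, because neither was above background on both arrays of a sex.

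At E13.5 Nodal, Lefty1 and Lefty2 were higher in male PGC. Lefty1 was higher by 7.42 ± 0.58 (adjusted p 4.51e-06, limma, n = 2 arrays a sex), or 171-fold. Lefty2 was at least 137-fold higher, a bound because no female array was above background (measured means -0.15 and -8.87, adjusted p 4.51e-06). Nodal was higher by 4.35 ± 0.78 (adjusted p 0.00193), with 1 of 2 female arrays above background. In all 3 genes the lowest male array lay above the highest female array. Of the 13801 genes tested, 12.2% were called in either direction and 4.44% as higher in males, or 0.768% as higher with the deposited value table, whose scaling moves the median difference of all genes from -0.13 to -1.18. Nodal and Lefty2 entered the test only through their male arrays, so the count of 3 members is no support of its own. With quantile normalization Nodal's adjusted p was 0.0649. Cer1 was not above background on any E13.5 array and was not tested. In bulk samples, fewer cells of a type and less RNA per cell cannot be told apart.

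The E13.5 difference was also read within each scan day, since the male and female arrays of 1 replicate shared a slide and a day. It was 7.49 and 7.35 for Lefty1, 8.49 and 8.96 for Lefty2, and 5.13 and 3.57 for Nodal in replicates 1 and 2. With slide as a block among the 12 PGC arrays, where 2 genes were called as higher and 4 as lower in the whole table, the adjusted p was 0.0418 for Lefty1, 0.0571 for Lefty2 and 0.0887 for Nodal.

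**Figure D2:**
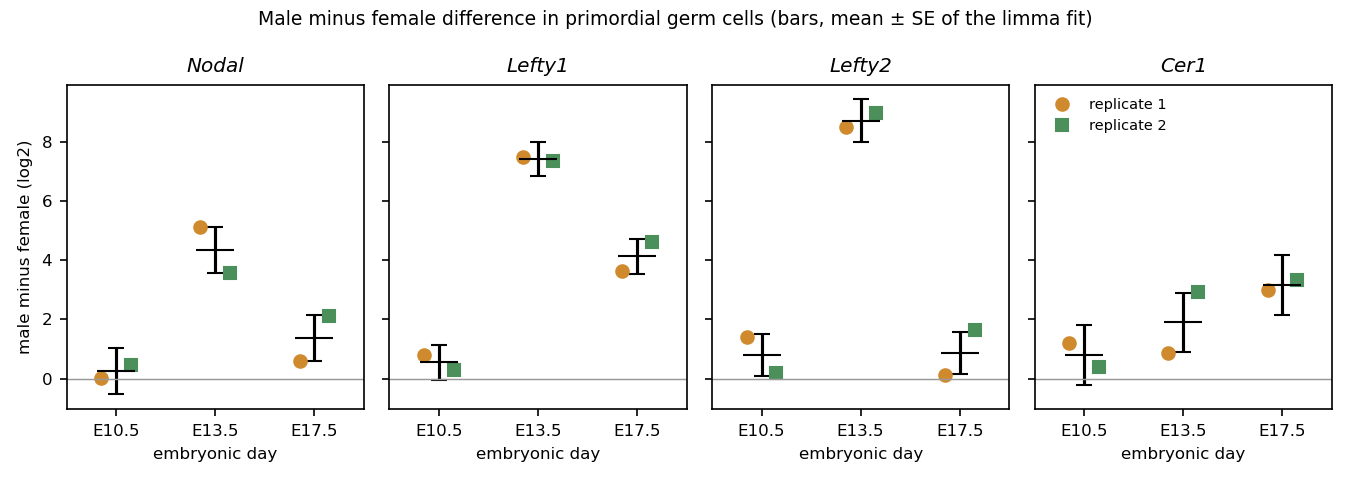
Male minus female difference in PGC (vertical axis, log2) at each embryonic day for each gene; black bars are the mean and SE of the limma fit, circles the arrays of replicate 1 and squares those of replicate 2, each pair scanned on 1 day. Nodal, Lefty1 and Lefty2 peak at E13.5, with both replicates at 3.57 or above, and Cer1 has its largest difference, 3.16, at E17.5.

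Markers of other cells moved with the E13.5 sex difference. All 5 Sertoli markers tested (Sox9, Ptgds, Clu, Cst9 and Wt1, of 6 on the array) were higher in male PGC samples, and Dhh was above background on 1 of 2 male arrays. The summed linear level of the 6 markers, where 1 is the array's 75th percentile, was 0.822 to 1.89 in males and 0.0467 to 0.0469 in females, in which Ptgds, Dhh and Cst9 were not above background. Their part in the difference was not tested. The same sum was 0.0317 to 0.161 in EG and ES cells, 3.64 to 7.68 in E17.5 male PGC and 9.41 to 9.86 in adult testis. The pluripotency list (Pou5f1, Nanog, Sox2, Esrrb, Utf1 and Zfp42) was above background in both sexes at E13.5, with sums of 15.9 to 20.4 in males and 10 to 10.2 in females. Of the other marker lists at E13.5, Dppa3 was higher in males among 5 germ cell genes, Irx3 was lower in males among 3 pregranulosa genes tested and Uchl1 higher among 3 spermatogonial genes, and the tested genes of the steroidogenic, blood, mesenchyme, endoderm and oocyte lists (1, 1, 4, 2 and 1) were not called.

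Genes of the sex-specific germ cell programmes were set beside the members. Nanos2, an RNA-binding protein of fetal male germ cells, stood at -0.15 and 0.03 in E13.5 males and -7.10 and -7.32 in females (higher by 7.15 ± 1.03, adjusted p 0.000338, limma). Of 4 fetal male germ cell genes tested, 2 were higher in E13.5 males (Nanos2 and Dnmt3l), and of 6 meiotic genes 4 were lower (Stra8, Rec8, Dmc1 and Sycp3). Stra8, which is required for entry into meiosis, stood at 3.34 and 2.87 in E13.5 females and at -4.72 and -5.69 in males. The drop of Lefty1 and Lefty2 in females fell between the same 2 stages as the appearance of Stra8, which was not above background at E10.5. Between these stages 25.9% of the 13607 genes tested in females were called, and a link was not tested.

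At E17.5 Lefty1 and Cer1 could be tested, and both were higher in males. Lefty1 was at least 4.36-fold higher in males (measured means -4.32 and -8.45, adjusted p 3.71e-05, limma), and Cer1 at least 2.18-fold higher (-5.31 and -8.47, adjusted p 0.0171), with no female array above background for either. The Cer1 adjusted p was 0.112 without female replicate 2 and 0.0947 without male replicate 1. Both genes were higher on both scan days, by 3.65 and 4.62 for Lefty1 and by 2.98 and 3.33 for Cer1. Nodal and Lefty2 were not above background in either sex and were not tested. At this stage 49.3% of the 16143 genes tested were called, 29.4% as higher in males, so calls at E17.5 were common. Lefty1 and Cer1 entered the test only through their male arrays, so the count of members called is no support of its own. With all levels below the highest detection limit of any array set to that limit, both differences are 0.

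The stage comparisons within a sex gave the time course its tests. In males between E10.5 and E13.5, Lefty1 rose by 3.07 ± 0.58 (adjusted p 0.00211, limma), while Lefty2 was higher by 1.57 ± 0.72 (adjusted p 0.153) and Nodal by 1.53 ± 0.78 (adjusted p 0.202), neither of which passed. Lefty2 did pass with quantile normalization (1.47, adjusted p 0.0121) and with normexp background correction (1.23, adjusted p 0.00114). In Nodal the 2 scan days disagreed in size, with 2.94 and 0.12, and without E10.5 male replicate 2 the adjusted p was 0.0246. In females over the same interval Lefty1 fell by 3.79 ± 0.58 (adjusted p 0.000274), and Lefty2 was at least 26.5-fold lower at E13.5 (measured means -8.87 and -2.53, adjusted p 2.26e-05). Nodal was not tested in females. The background was 15.8% of 10457 genes called in males (10.6% as higher) and 25.9% of 13607 in females (7.23% as lower). Lefty2 entered the female test only through its E10.5 arrays. With slide as a block the adjusted p was 0.122 for Lefty1 in males and 0.0875 for both Lefty genes in females, and no gene of the table passed in either comparison (2152 and 3584 at an unadjusted p under 0.05).

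Whether the sexes moved differently was tested as an interaction. Between E10.5 and E13.5 the male change exceeded the female change by 6.87 ± 0.83 for Lefty1 (adjusted p 0.000956, limma) and by 7.92 ± 1.02 for Lefty2 (adjusted p 0.00118), while 2.63% of 13914 genes were called. For Nodal it was 4.10 ± 1.11 (adjusted p 0.0613), or 0.0368 with the replicate number as a block. In both Lefty genes each male array pair went up and each female pair went down within its scan day. With slide as a block the adjusted p was 0.274 for Lefty1 and 0.318 for Lefty2, and no gene of the table passed (1641 at an unadjusted p under 0.05).

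Between E13.5 and E17.5 the Lefty genes and Nodal fell in males. Lefty1 fell by 6.64 ± 0.58 (adjusted p 9.32e-07, limma), Lefty2 was at least 76.1-fold lower at E17.5 (measured means -7.55 and -0.15, adjusted p 2.3e-06) and Nodal at least 10.6-fold lower (-6.97 and -3.00, adjusted p 0.000942). On both scan days all 3 went down, and the Lefty1 difference was -6.36 and -6.92. The background was 41.8% of 15607 genes called in either direction and 12.3% as lower at E17.5. Nodal and Lefty2 entered this test only through their E13.5 arrays, so the count of 3 members is no support of its own. Cer1 was higher at E17.5 in males by 2.16 ± 1.01, or at least 1.48-fold, with an adjusted p of 0.0967, or 0.039 with the scan day as a block and 0.00281 (2.57) with quantile normalization. In females Lefty1 was at least 2.54-fold lower at E17.5 (-8.45 and -5.09, adjusted p 0.000447), against 32.6% of 14346 genes called and 14.5% as lower. It entered that test only through its E13.5 arrays, and no other member was tested. The male and female changes differed by -3.29 ± 0.83 for Lefty1 (adjusted p 0.00817) and -7.85 ± 1.02 for Lefty2 (adjusted p 5.18e-05), where 26.2% of 16864 genes were called, and Lefty1's adjusted p was 0.102 with the deposited value table. For Nodal the difference was -2.99 ± 1.11 (adjusted p 0.0568), or 0.0326 with the replicate number as a block.

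Spermatogonia and oogonia, whose age the labels do not give, were compared with E17.5 PGC of the same sex. They lay on other slides and scan days and came from a different transgenic strain, which cannot be told apart from the cell type. Lefty2 was at least 4.02-fold higher in spermatogonia than in E17.5 male PGC (measured means -4.40 and -7.55, adjusted p 0.0123, limma), with 11.9% of 16597 genes called. Leaving out any 1 of these 4 arrays ended that call, with adjusted p from 0.0503 to 0.104, the mean of the gene's 4 probes gave 1.53 and an adjusted p of 0.128, and slide as a random block gave 0.329. Lefty1 (-0.44 ± 0.58, adjusted p 0.675) and Cer1 (-0.07 ± 1.01, adjusted p 0.972) were not called. In oogonia against E17.5 female PGC none of the 4 genes was above background on both arrays of either group, so none was tested, where 15% of 17041 genes were called.

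EG cells were compared with E13.5 PGC of the same sex. Against E13.5 female PGC, female EG cells were higher by 7.77 ± 0.58 for Lefty1 (adjusted p 1.74e-07, limma) and 4.32 ± 0.78 for Nodal (adjusted p 0.000529), and at least 158-fold higher for Lefty2 (means 0.05 and -8.87, adjusted p 3.09e-07), with 32.8% of 20767 genes called and 14.3% as higher. Nodal and Lefty2 entered this test only through their EG arrays, so the count of members called is no support of its own. Against E13.5 male PGC, male EG cells were not called for any member: the differences were -0.29 ± 0.58 for Lefty1, 0.47 ± 0.72 for Lefty2, 0.12 ± 0.78 for Nodal and 2.06 ± 1.01 for Cer1 (adjusted p 0.764, 0.689, 0.933 and 0.163), with 23.4% of 21100 genes called. The Cer1 value was called with the deposited value table (3.17, adjusted p 0.0022), with quantile normalization (3.39, adjusted p 0.00073) and with normexp (1.14, adjusted p 0.0348). EG cells and PGC lay on different slides and scan days, which cannot be told apart from the cell type.

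EG and ES cells were not told apart by any member. The EG minus ES difference was -0.31 ± 0.55 for Nodal, 0.21 ± 0.41 for Lefty1, 0.09 ± 0.51 for Lefty2 and 0.27 ± 0.72 for Cer1 (adjusted p 0.817 to 0.949, limma), with 4.93% of 23235 genes called. Between the sexes of EG cells Cer1 was at least 18.9-fold higher in males (measured means -5.42 and -10.65, adjusted p 0.025), where 0.686% of 21858 genes were called and 0.371% as higher in males. The sample titles name no EG line, so sex and line cannot be told apart. Cer1 entered this test only through its male arrays. Its adjusted p was 0.29 without female replicate 2, 0.366 without male replicate 1 and 0.126 without male replicate 2. The male and female ES lines differed in Cer1 by 2.57 ± 1.01 (adjusted p 0.217) and were not called for any member, against 2.94% of 21708 genes. Lefty2 differed by -1.06 ± 0.72 between the ES lines (adjusted p 0.568), and with normexp by -0.91 (adjusted p 0.0392). These lines also differ in strain.

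Cultured GS cells and testis held little of any member. In GS cells Lefty2 was at least 56.4-fold lower than in spermatogonia (measured means -11.24 and -4.40, adjusted p 1.01e-05, limma), and Cer1 was lower by 5.37 ± 1.01 (adjusted p 0.00137), with 1 of 2 GS arrays above background and an adjusted p of 0.0809 with slide as a random block. In that comparison 23% of 26031 genes were called. Lefty2 and Cer1 entered it only through their spermatogonia arrays, so the count of members called is no support of its own. The other Lefty2 probes gave -3.95, -4.33 and -4.71, beside -6.84 for the probe used. Slide, scan day and strain also differed between these 2 groups and cannot be told apart from the cell type. Lefty1 was higher in GS cells than in testis by 1.69 ± 0.58 (adjusted p 0.0258), against 46.3% of 30303 genes. That call rests on GS replicate 1: without it the difference was 0.52 with an adjusted p of 0.471, and without either testis array the adjusted p was 0.0985 and 0.0862. For Lefty2 the GS minus testis difference was -1.56 ± 0.72 (adjusted p 0.0883), and -3.09 without GS replicate 1 (adjusted p 0.000754). Lefty1 was higher in GS cells than in spermatogonia by 1.19 ± 0.58 (adjusted p 0.161), or by 2.36 without GS replicate 2 (adjusted p 0.00472).

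The wider pathway was read from a list of 37 genes, of which 29, the 4 members included, were on the array under RefSeq names. The co-receptor Tdgf1 (Cripto) was not above background on any of the 28 arrays, ES cells included, and neither was the target Mixl1. How well the probes of Tdgf1 and Mixl1 detect their transcripts was not tested, so absence of the transcripts is not shown. The type I receptor Acvr1c, counting any of its probes, was above background on both arrays only in testis. The other co-receptor, Cfc1 (Cryptic), was above background on both arrays of E10.5 female PGC, oogonia, and all EG and ES groups, and was at least 4.61-fold higher in oogonia than in E17.5 female PGC (measured means -4.08 and -6.39, adjusted p 0.0349, limma). That call was lost in 9 of 14 other settings, including the removal of any 1 of the 4 arrays.

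The receptor Acvr2b and the effectors were measured where the members differed most. Of the receptors on the array only Acvr2b is given here, so a complete receptor complex in E13.5 PGC is not shown. Acvr2b, a type II receptor, stood between 0.85 and 1.26 in all 8 E10.5 and E13.5 PGC arrays and both E17.5 female arrays, and Smad2 between -0.99 and -0.41 in the E10.5 and E13.5 arrays. Gdf3, Acvr2b, Smad2, Smad3, Smad4 and Foxh1 were tested between the sexes at E13.5 and did not pass (adjusted p 0.115 to 0.875, limma). Over the 13 non-members tested at that stage, 1 was higher in males, with a median of 0.13 beside -0.13 over all genes. It was Tgif1, a homeobox repressor of Smad2-dependent transcription, which was higher by 1.85 ± 0.40 (adjusted p 0.00661).

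The ligand Gdf3 and the effector Foxh1 fell in both sexes between E13.5 and E17.5. Gdf3 stood at -2.68 and -3.12 in E13.5 males and -3.65 and -3.54 in E13.5 females. It fell by 3.22 ± 0.40 in males (adjusted p 2.09e-05, limma), and in females was at least 7.18-fold lower at E17.5 (adjusted p 1.54e-06). Foxh1, the forkhead partner of Smad2, fell by 1.40 ± 0.28 in males (adjusted p 0.000942) and fell by 1.77 ± 0.28 in females (adjusted p 0.000179), and was already lower by 1.08 ± 0.28 in E13.5 than in E10.5 males (adjusted p 0.014).

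**Figure D3:**
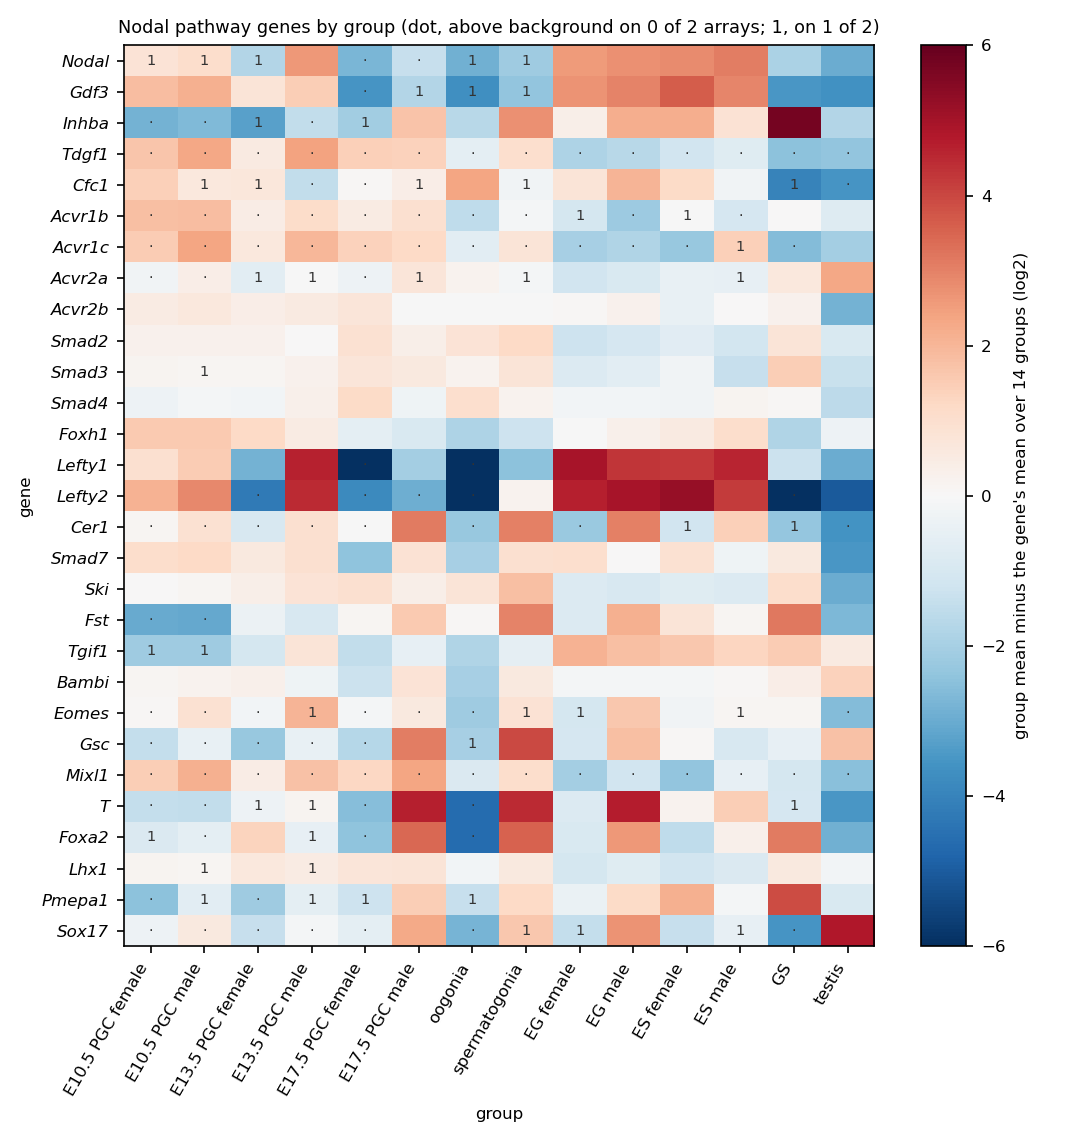
Group mean of each of the 29 pathway genes on the array minus that gene's mean over the 14 groups (colour, log2), with genes in rows ordered from ligands to targets and groups in columns. A dot marks groups in which no array was above background and a 1 those with 1 of 2 arrays; Lefty1 and Lefty2 share their high groups with Nodal, and Cer1 shares E17.5 male PGC, spermatogonia and male EG cells with T, Gsc and Foxa2.

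At E17.5, 8 of the 17 non-members tested were higher in males (Inhba, Smad7, Bambi, Gsc, T, Foxa2, Pmepa1 and Sox17) and 2 lower (Acvr2b and Smad4), with a median of 1.43 beside 0.27 over all genes, of which 29.4% were called higher. Gsc, T, Foxa2 and Sox17 entered this test only through their male arrays, so the count and the median are no support of their own. Of 16 other settings, 7 ended the call for Pmepa1, 7 for Acvr2b, 6 for Sox17 and 6 for Inhba. Inhba, the activin A subunit, was higher by 3.83 ± 1.33 (adjusted p 0.0255, limma), a call that leaving out any 1 of the 4 arrays ended. The feedback inhibitors Smad7 and Bambi were higher by 3.30 ± 0.41 and 2.10 ± 0.32 (adjusted p 1.12e-05 and 6.33e-05), and both had fallen in females from E13.5, by 3.03 ± 0.41 and 1.60 ± 0.32. Smad4, the shared effector, was lower in males by 1.41 ± 0.25 (adjusted p 0.000252).

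Of the mesendoderm targets, T, Gsc and Foxa2 were high in the 3 groups with the highest Cer1 means. These genes are singled out after their values were seen. T (Brachyury), a mesoderm transcription factor, stood at -1.58 and -1.51 in E17.5 male PGC, -1.64 and -1.82 in spermatogonia and -1.22 and -1.73 in male EG cells, and was not above background in E17.5 female PGC (-8.18 and -9.35), from which E17.5 males differed at least 29.7-fold (adjusted p 0.00145, limma). Gsc (Goosecoid), a homeobox gene of the organizer, stood at -3.96 and -3.73 in E17.5 male PGC, -2.90 and -3.02 in spermatogonia and -4.70 and -5.58 in male EG cells. Foxa2, a forkhead factor of endoderm, stood at -2.36 and -2.70, -2.24 and -2.64, and -2.96 and -3.77 in the same groups. In all 3 genes these were the highest group means, except for Foxa2 in GS cells (-3.97 and -1.68). There Cer1 was above background on 1 of 2 arrays. Gsc in testis (-5.18 and -5.16), where Cer1 was not above background, lay within the range of male EG cells. In male ES cells, where Cer1 was above background on both arrays, Gsc (-8.43 and -7.41) was below its level in female ES cells (-6.90 and -6.80). Among the other targets, Sox17 had its highest mean in testis (-3.06), where Cer1 was not above background, and Mixl1 was not above background on any array. Lhx1 was lower in male EG cells than in E13.5 male PGC by 1.23 ± 0.34 (adjusted p 0.0144, limma), a call lost in 9 of 14 other settings.

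Afp, an endoderm marker outside the Nodal pathway list, was at 1.35 and 1.26 in E17.5 male PGC and 1.85 and 1.80 in spermatogonia, and at -8.26 and -9.96 in male EG cells, in which 1 of 2 arrays was above background. Of the 7 endoderm markers, Foxa2, Sox17, Gata6 and Afp were above background on both E17.5 male arrays, Gata4 on 1, and Ttr and Sox7 on neither. The summed linear level of the 7 was 2.72 to 2.90 in E17.5 males, 3.73 to 3.92 in spermatogonia, 0.0657 to 0.115 in E17.5 females and 0.112 to 0.197 in male EG cells. The 6 Sertoli markers tested at E17.5 were all higher in males, as were Pou5f1, Nanog, Esrrb and Utf1 of 6 pluripotency genes and Cyp11a1 and Nr5a1 of 3 steroidogenic genes. Of 5 oocyte genes Figla, Nobox and Lhx8 were lower in males and Zp3 higher. Dppa3 and Kit of 5 germ cell genes and the spermatogonial gene Id4 (of 2 tested) were lower in males, and the spermatid gene Tnp1 (1 tested) was higher. The part of these cell types in the Cer1 signal was not tested.

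**Figure D4:**
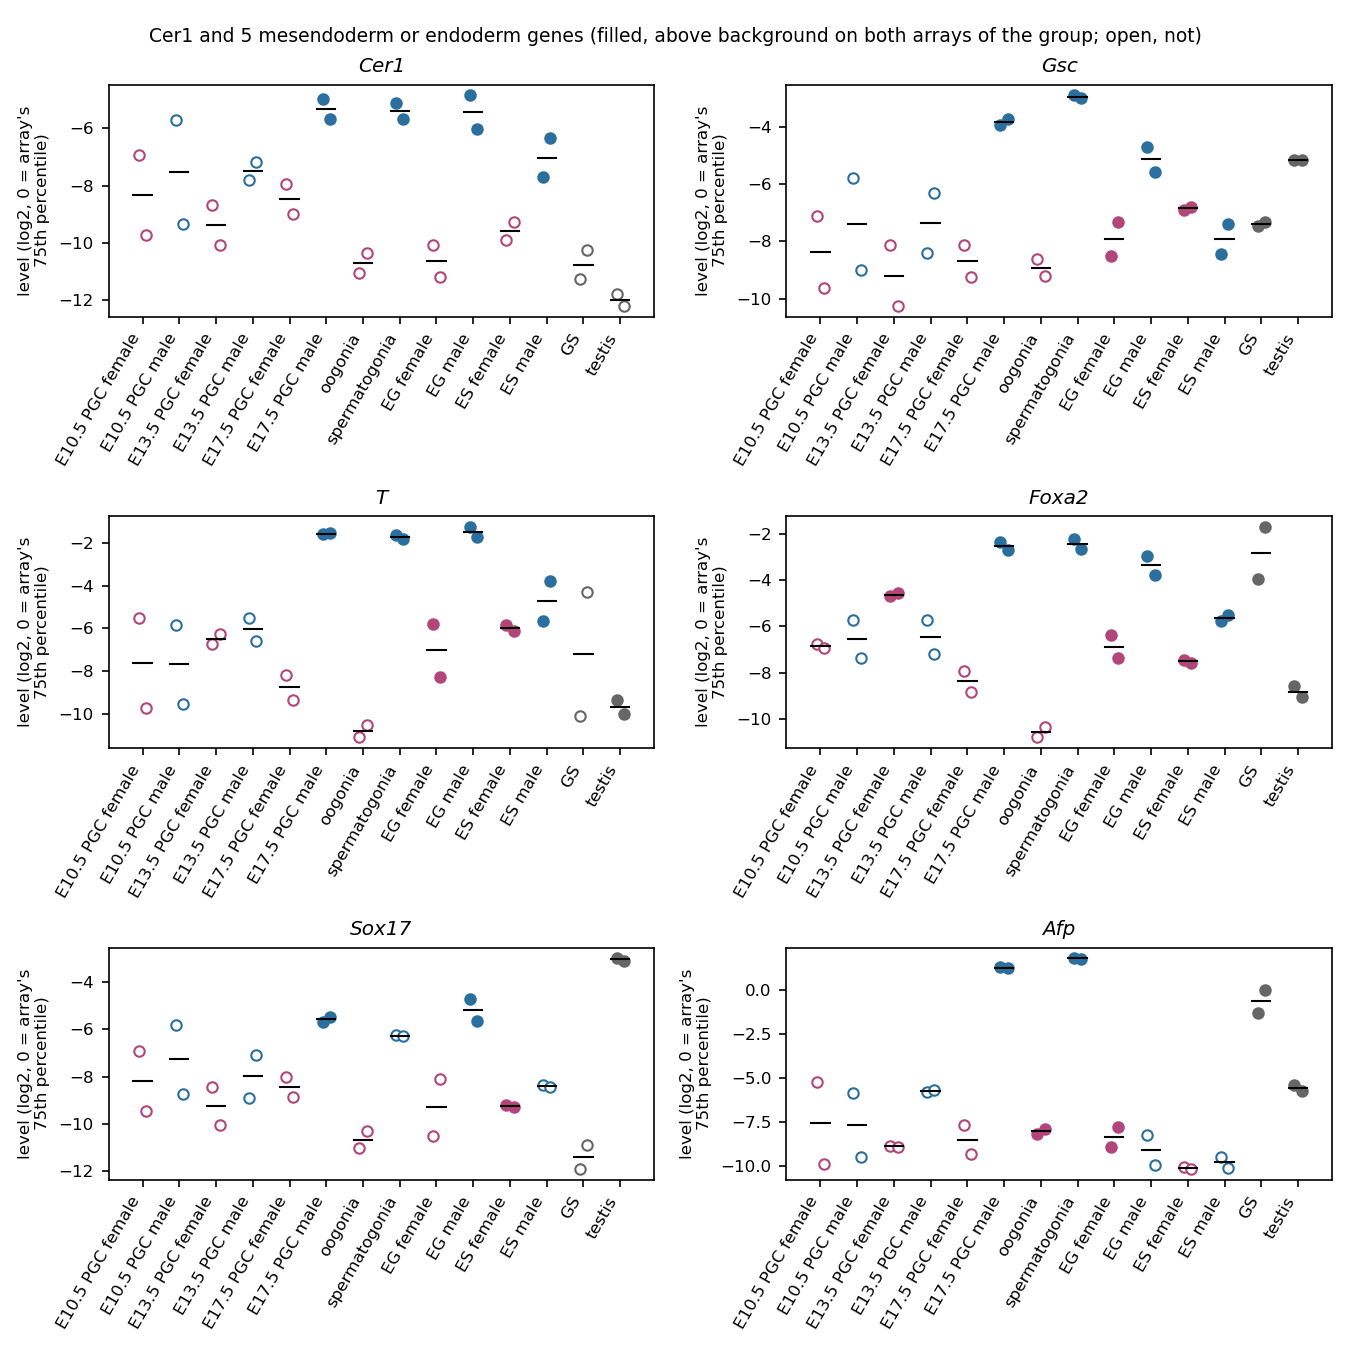
Levels of Cer1 and of Gsc, T, Foxa2, Sox17 and Afp (vertical axes, log2 relative to the array's 75th percentile) on the 2 arrays of each of 14 groups, with the group mean as a bar; filled points mark groups with both arrays above background. Cer1, Gsc, T and Foxa2 are high in E17.5 male PGC, spermatogonia and male EG cells, and Afp in the first of these, in spermatogonia and in GS cells. Gsc has a like mean in testis (-5.17) and in male EG cells (-5.14).

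The genes whose pattern over the 14 group means was most like each member's were sought among 11844 other named genes, with Pearson's r as the measure. For Nodal they included Lefty1 (0.957) and Usp10 (0.941), for Lefty1 Nodal (0.957) and Ptbp1 (0.949), and for Lefty2 Nodal (0.937), Usp10 (0.936) and Socs2 (0.920). The 2 Lefty genes correlated with each other at 0.893. Lefty2 was at rank 34 for Lefty1, Lefty1 at rank 14 for Lefty2 and Lefty2 at rank 8 for Nodal, so genes outside the set lay nearer. Cer1 stood apart, with 0.283 to Nodal, 0.241 to Lefty1 and 0.419 to Lefty2, and its nearest genes were Calcr (0.946), Mal2 (0.899) and Epx (0.875). The 14 points share strains, slides and depth within cell types, and the values below background differ between arrays, so these figures are descriptions.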

How the data were processed

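Single-colour Agilent arrays of 28 samples in 14 groups were used. Per the file headers and the submitters' processing notes, the authors quantified spots with Agilent Feature Extraction 10.5.1.1, and the deposited intensity used is its background-corrected processed signal on a linear scale. RNA (50 ng) was labelled with Cy3 after linear amplification, per the labels. The deposited value table holds log2 values which, tested against the scanner signals, equal log2 processed signal minus the array median (within 0.00252), and serves as an alternative. Spots flagged as non-uniform on any array (514 of 43803 probes) and 1417 control spots were left out, and no spot was saturated. Probes were named through RefSeq accessions (16760 named, some of which can be old), giving 38727 genes or unnamed targets. A gene entered a comparison if any of its probes passed the scanner's test for signal well above background on both arrays of 1 group compared. Differences were tested with limma 3.58.1 (R 4.3.3) in 1 model of 14 group means with 14 residual degrees of freedom, Benjamini-Hochberg adjusted over all genes tested, threshold 0.05. "At least N-fold" compares the bright group's mean with the dim group's detection limit, the mean over its arrays of the higher of the lowest signal among probes well above background and the gene's own. The number of arrays limits the precision.

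The members, lists and tests were chosen with earlier results of these data known. Named genes are the members, the pathway, fetal male, meiotic and marker lists, and the 3 genes most correlated with each member, and some genes of these sets are not reported here. Afp was taken from the endoderm markers. In PGC the replicate number equals the scan day, and arrays with the same number deviated together (correlations 0.307 to 0.796 over the 15 pairs of groups), so the numbers pair PGC samples. The normexp alternative used gMedianSignal, since the mean signal was not among the columns used here. The model was tested on simulated data.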

Additional observations from a re-analysis of the deposited data

Results flagged for a closer look

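The results below differ between the sexes by a test of the difference itself (limma, male change minus female change, log2 scale, with SE). Between E10.5 and E13.5 these are Lefty1 (6.87 ± 0.83) and Lefty2 (7.92 ± 1.02). Between E13.5 and E17.5 they are Lefty1 (-3.29 ± 0.83), Lefty2 (-7.85 ± 1.02), Smad4 (-1.91 ± 0.35), Ski (-1.07 ± 0.38), Smad7 (2.94 ± 0.58), Bambi (2.65 ± 0.45), T (6.79 ± 2.24) and Foxa2 (7.70 ± 0.96). Adjusted p in the second interval ran from 3.69e-05 for Foxa2 to 0.0472 for Ski. Of 20 other settings, 12 ended the call for Ski (adjusted p up to 0.767), 10 for T (up to 0.11), 4 for Smad4, 2 for Bambi, 1 each for Smad7, Foxa2 and Lefty1, and none for Lefty2. Where a group was not above background (Lefty1 in E17.5 females, Lefty2 in females at E13.5 and at E17.5 in both sexes, T and Foxa2 in E17.5 females, T and Foxa2 on 1 of 2 arrays in some E13.5 groups) the size of the difference is no measured fold.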

How the results depend on the processing

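The 4 genes gave 53 tested differences, of which 24 were called. Over all genes the share called ran from 0.0114% (E10.5 sexes) to 49.3% (E17.5 sexes). The comparisons reuse arrays, and some members entered only through their bright group, so the pooled count is no support of its own. None of the 24 changed sign, 21 were kept under every planned scaling, 20 without any 1 array and 4 under every setting. Among the other pathway genes, Smad2 in male EG cells against E13.5 male PGC (-1.02) turned to 0.10 with the deposited value table (adjusted p 0.945). With the replicate number as a block, Nodal's interaction between E10.5 and E13.5 had an adjusted p of 0.0368 and between E13.5 and E17.5 of 0.0326, and no other call on the 4 genes changed. Outside PGC the samples share only a number.

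The count of the 4 genes called moved by more than 1.5 times as follows, and smaller moves (such as Nodal lost between the E13.5 sexes with quantile normalization, Cer1 gained in males from E13.5 to E17.5 with quantile normalization, the scan day as a block or slide as a random block, and Nodal gained in both interactions with the last 2) are not given as counts. Fitting only the groups compared, which leaves few degrees of freedom, gave 0 in the E13.5 sex comparison (3 otherwise), in males and females from E10.5 to E13.5 (1 and 2), in males from E13.5 to E17.5 (3), in the first interaction (2), in spermatogonia (1), in EG sexes (1) and in GS cells against testis (1). Slide as a block gave 1 in the E13.5 sex comparison and 0 in both E10.5 to E13.5 comparisons and their interaction. Slide as a random block (correlation 0.645) gave 2 in males from E10.5 to E13.5, 0 in spermatogonia, 1 in ES sexes (0) and 1 in GS cells against spermatogonia (2). A common floor gave 0 in the E17.5 sex comparison (2), females from E13.5 to E17.5 (1), spermatogonia, EG sexes and both GS comparisons, and 2 in males from E10.5 to E13.5. Quantile normalization and normexp each gave 2 in males from E10.5 to E13.5 and 1 in male EG cells against PGC (0), and normexp gave 0 in EG sexes and 1 in ES sexes. The deposited value table gave 1 in male EG cells and 1 in the second interaction (2), and the mean of a gene's probes gave 0 in spermatogonia. Leaving out 1 array gave 3 to 3 in the E13.5 sex comparison, 1 to 2 at E17.5, 1 to 2 in males and 2 to 2 in females from E10.5 to E13.5, 3 to 3 in males and 1 to 1 in females from E13.5 to E17.5, 2 to 3 in each interaction, 0 to 0 in spermatogonia, 0 to 1 in EG sexes, 3 to 3 in female EG cells, 2 to 3 in GS cells against spermatogonia and 0 to 1 against testis.

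Over all genes the calls at E13.5 between the sexes (1680) ran from 0 with only the groups compared to 3186 with slide as a random block, and those of the first interaction (366) from 0 to 1456. The deposited value table moved the median of all genes by -1.05 (E13.5 sexes) to 1.12 (male EG cells against PGC). Signal near background limits Nodal and Cer1 most, and 16 of 28 arrays had under 50% of probes well above background.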
